A study of Mus musculus with 12 samples.

Results

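The S100 proteins and annexins described here are 10 genes, S100a4, S100a6, S100a8, S100a9, S100a10, S100a11, Anxa1, Anxa2, Anxa3 and Anxa5, of 27962 gene names on the array. They were taken by name, as every probe to which the array's annotation gives one of these symbols, which came to 12 of 41174 probes. Anxa2 and Anxa3 had 2 probes each and every other gene had 1. The RNA came from whole livers of 12 male C57BL/6 mice and was hybridised to 1-colour microarrays, where a probe of 60 bases shines in proportion to the transcript it binds. The mice were SIRT1+/+ (WT) or SIRT1+/- (Het), the latter heterozygous for the gene of the NAD-dependent deacetylase SIRT1, and each genotype was kept for 34 weeks on a low-fat or on a high-fat diet. This gave 4 groups of 3 mice with 1 array each, and the series addresses the role of SIRT1 in metabolic disease that follows a rich diet. The age of the mice and the way in which the SIRT1 allele was made are not given in the sources used here. In such bulk RNA fewer cells of a type and less RNA per cell cannot be told apart.

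S100 proteins are small calcium sensors that change shape when calcium binds and then dock onto a partner protein. Annexins bind acidic phospholipids of membranes when calcium rises, and several of them carry an S100 dimer, which bridges membranes or ties them to the cytoskeleton. S100a8 and S100a9 form calprotectin, which fills the cytosol of neutrophils and is released in inflammation. S100a10 binds Anxa2, and the complex displays plasminogen and its activator on the cell surface. S100a11 binds Anxa1, and S100a4 and S100a6 act on myosin, the cytoskeleton and protein turnover. In healthy liver most of these genes are expressed less in hepatocytes than in bile duct, stellate, endothelial and immune cells.

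The sequences that measured the gene with the largest difference between diets, Anxa2, and the inflammatory gene S100a8 are given 5′ to 3′ as the array's annotation lists them, with the longest run shared with a probe of any other gene name in capitals. The brighter Anxa2 probe lies at chr9:69521491-69521550 on the plus strand (mouse build mm7), and the dimmer at chr9:69514817-69515591, a span longer than the probe, so that it crosses a junction of exons. The S100a8 probe lies at chr3:90800058-90800117 on the plus strand.
Anxa2 brighter probe: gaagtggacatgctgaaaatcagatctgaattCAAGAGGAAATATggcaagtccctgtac
Anxa2 dimmer probe: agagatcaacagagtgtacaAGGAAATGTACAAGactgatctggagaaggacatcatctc
S100a8 probe: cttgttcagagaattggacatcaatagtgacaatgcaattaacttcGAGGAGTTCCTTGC
The Anxa2 probes are separate stretches of 1 transcript, and the run shared with another gene's probe was 13 bases for the brighter and 14 bases for the dimmer. Over all 12 probes the shared run was 12 to 15 bases, except that of S100a11, which shared 46 of its 60 bases with the probe of LOC670046, a predicted gene that the annotation describes as similar to S100a11. The S100a11 probe therefore cannot be taken to report that gene alone.

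The 6 S100 genes lie on chromosome 3 in 2 clusters. Over both genotypes S100a4, S100a6 and S100a11 passed the test for diet given below, and S100a8, S100a9 and S100a10 did not. The part of position in this was not tested. On mm7 the probes of S100a4 and S100a6 lie 8.258 kb apart, those of S100a8 and S100a9 lie 22.75 kb apart, and those of S100a11 and S100a10 lie 38.36 kb apart, at chr3:93627811-93627870 and chr3:93666231-93666290. Anxa5 lies at chr3:36259980-36260039, Anxa1 at chr19:20074249-20075762 and the brighter Anxa3 probe at chr5:96059115-96059174. The 250 bases before the start of 8 of the 10 genes were read from RefSeq (GRCm38.p6), and those of S100a10 and Anxa3 were not used here. They were searched on both strands for TATAAA (the TATA box), GGGCGG (the GC box), TGANTCA (the AP-1 motif), TTGCNNAA (a C/EBP motif) and GAGGAAGT (a PU.1 motif), where N is any base. No matches overlapped in these promoters. The promoters of the genes with the clearest difference between diets, and that of S100a8 for contrast, follow with every match in capitals.
Anxa2 (chr9:69453433-69453682, plus strand): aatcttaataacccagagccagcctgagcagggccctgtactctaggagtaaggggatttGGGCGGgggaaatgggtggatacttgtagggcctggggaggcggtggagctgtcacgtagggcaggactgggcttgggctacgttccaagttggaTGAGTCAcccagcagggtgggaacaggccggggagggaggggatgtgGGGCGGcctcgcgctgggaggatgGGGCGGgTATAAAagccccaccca
S100a11 (chr3:93520246-93520495, plus strand): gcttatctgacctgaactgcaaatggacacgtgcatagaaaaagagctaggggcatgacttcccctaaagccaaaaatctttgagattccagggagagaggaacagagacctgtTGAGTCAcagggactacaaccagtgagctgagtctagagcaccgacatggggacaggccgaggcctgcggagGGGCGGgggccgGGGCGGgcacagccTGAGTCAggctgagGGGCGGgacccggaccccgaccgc
S100a4 (chr3:90603520-90603769, plus strand): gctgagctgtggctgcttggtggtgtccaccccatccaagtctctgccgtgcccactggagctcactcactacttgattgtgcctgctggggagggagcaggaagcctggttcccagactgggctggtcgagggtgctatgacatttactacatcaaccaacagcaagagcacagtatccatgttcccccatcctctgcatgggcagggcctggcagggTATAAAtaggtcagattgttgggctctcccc
Anxa5 (chr3:36475888-36476137, minus strand): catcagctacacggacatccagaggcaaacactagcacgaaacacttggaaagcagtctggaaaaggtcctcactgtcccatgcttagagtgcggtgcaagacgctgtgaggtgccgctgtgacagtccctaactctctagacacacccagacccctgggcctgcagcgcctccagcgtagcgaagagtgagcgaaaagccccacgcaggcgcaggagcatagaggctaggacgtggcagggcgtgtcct
S100a8 (chr3:90668821-90669070, plus strand): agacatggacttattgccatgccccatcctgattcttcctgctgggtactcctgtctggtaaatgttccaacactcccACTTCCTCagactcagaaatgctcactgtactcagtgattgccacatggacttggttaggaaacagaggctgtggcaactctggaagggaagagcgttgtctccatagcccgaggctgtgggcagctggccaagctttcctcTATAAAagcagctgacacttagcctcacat
TGANTCA stood in the promoters of Anxa2 and S100a11, as it did in 6.75% of 32851 promoters of this length. TATAAA stood in 4 of the 8, Anxa1, Anxa2, S100a4 and S100a8, against 12.4% of all promoters, and GGGCGG in 3, Anxa2, S100a11 and S100a9, against 32.7%. TTGCNNAA stood in Anxa1 and S100a9 (9.56% of all) and GAGGAAGT in S100a8 (2.44% of all). The promoters of Anxa5 and S100a6 held no match. A match describes letters in a window and not a site in use.

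Levels are given as log2 of a probe's signal over the 75th percentile of the signals on its array, so that a difference of 1 is a 2-fold change, and levels of different probes are not compared. Of the 12 probes, 11 passed the filter on dim probes, and each of these was well above background and unsaturated on all 12 arrays. The second Anxa3 probe, which the annotation ties to a cDNA clone and not to the curated transcript, was not well above background on any array and has no level. Differences were tested with limma over all 25296 probes that passed, with Benjamini-Hochberg adjustment over all of them, and a probe is called at an adjusted p under 0.05. Errors of a difference are its standard error (SE) from that fit, with n = 3 per group.

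All 12 arrays together had 58.01% to 71.6% of their spots well above background. The high-fat arrays shared 1 scan day and 2 slides, and the low-fat arrays a different day and 2 different slides. Wherever diets are compared, diet cannot be told apart from scan day and slide. An alternative fit below treats slide as a random block, with a negative correlation within slides (-0.18). As each slide held 1 diet, that tends to lower the SE of a diet difference. Calls gained with that fit alone carry less weight. Both Sirt1 probes were lower in Het than in WT mice without overlap on each diet, at -1.69 to -1.59 against -1.14 to -0.81 on the high-fat diet for the dimmer of them. Neither was called for genotype on either diet or over both. The lowest adjusted p was 0.333 by limma, for the dimmer probe on the high-fat diet. Of 10 hepatocyte markers 8 were measured, and these 8, among them Alb and Apoa1, were well above background on every array.

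**Figure D1:**
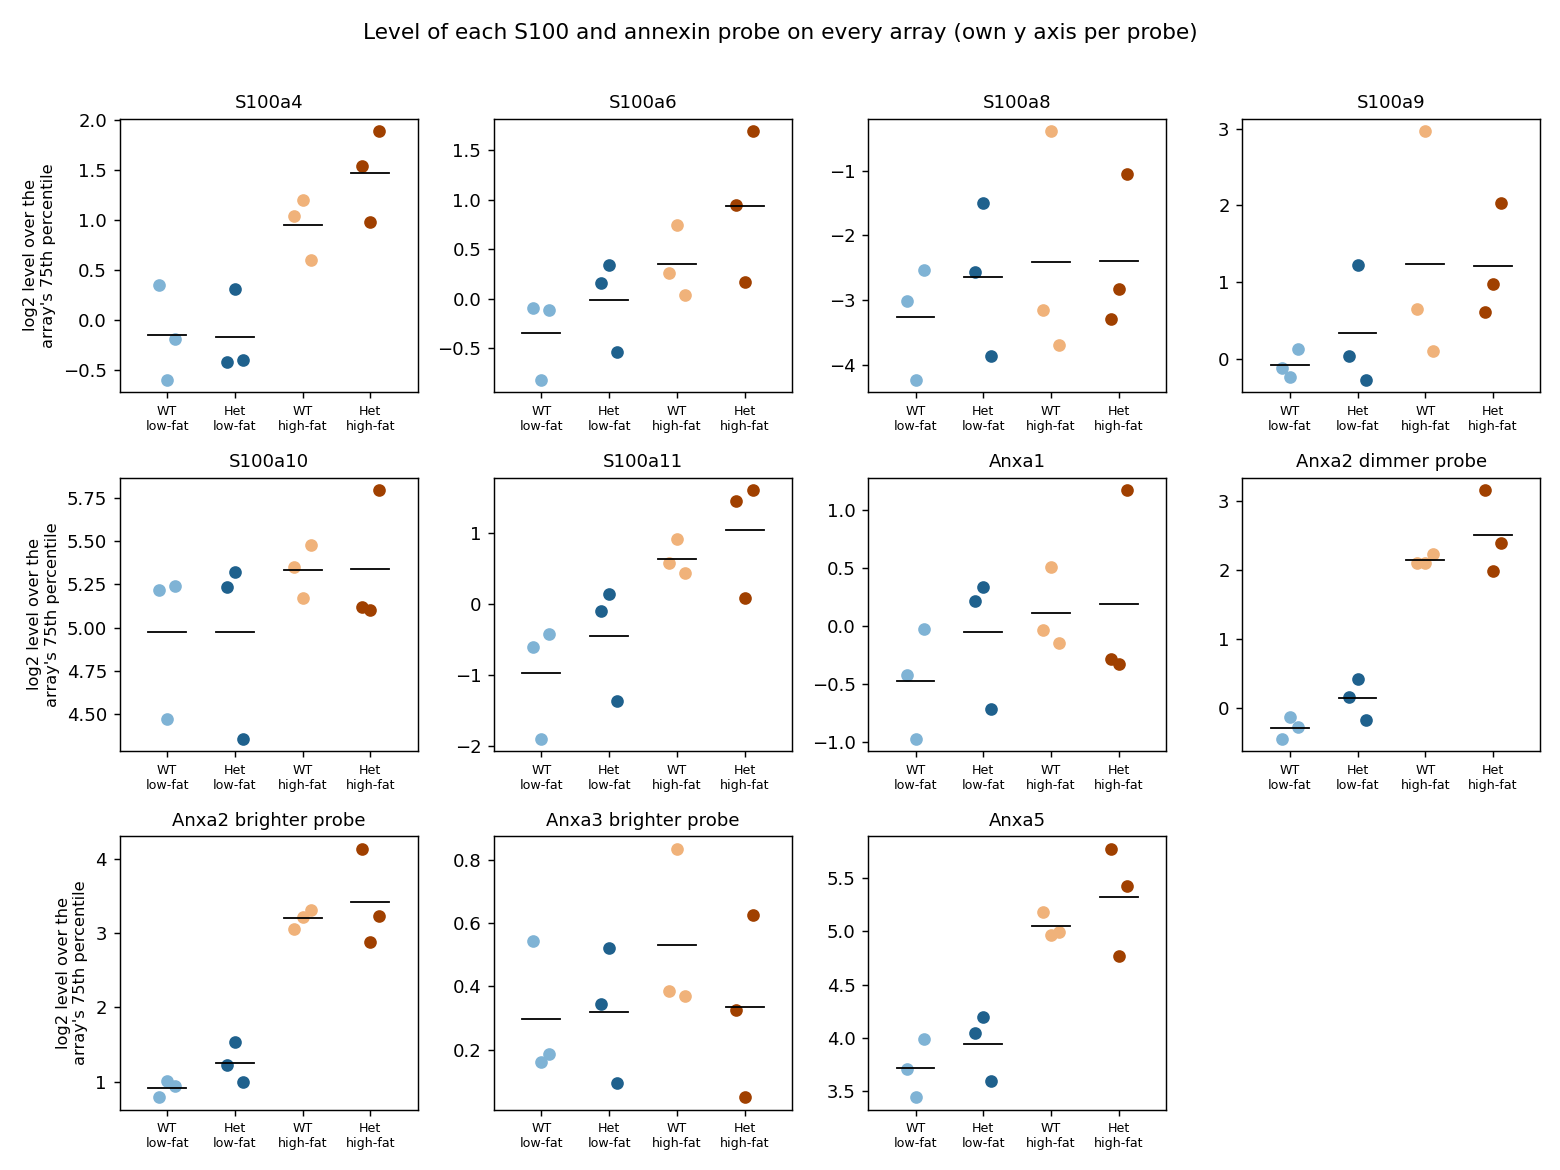
Log2 level of each of the 11 measured probes on every array, by group, with a line at the mean of 3 mice and a separate y axis for each probe. Both Anxa2 probes, Anxa5 and S100a4 are higher on all 6 high-fat arrays than on any low-fat array, whereas the points of S100a6, S100a8, S100a9, S100a10, S100a11, Anxa1 and Anxa3 from both diets overlap.

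Diet went with higher levels of several members and with lower levels of none. In WT mice 3 of 11 probes were called higher on the high-fat diet, both probes of Anxa2 and that of Anxa5, where 2.42% of all probes tested were called higher and 3.27% lower. In Het mice 4 of 11 were called higher, the same probes and S100a4, against 6.79% of all probes called higher and 8.01% lower. With both genotypes averaged 6 of 11 were called higher, S100a11 and S100a6 in addition, against 12.3% higher and 17.1% lower among all probes. Every one of the 11 estimates was above 0 in each genotype, where 44.2% of all probes were in WT and 49.0% in Het. Probes of 1 array are not independent. The median of the 11 was 1.09 in WT and 0.94 in Het, where the medians over all probes were -0.05 and -0.01. Of the called probes of all genes 42.6% were higher in WT, a share that became 58.6% when arrays were quantile normalized, 75.05% when they were scaled to their medians and 52.0% with normexp background correction. Scaling to the median moved the median over all probes in WT to 0.06, while the members called above stayed called and higher. The corresponding share in Het was 45.9%, and 50.2%, 54.5% and 54.8% with these alternatives, and over both genotypes 41.9%, and 48.6%, 59.0% and 51.6%.

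Among the annexins, Anxa2, which organises membrane and actin at sites of exocytosis and repair, stood furthest apart. Its brighter probe had levels of 3.06, 3.22 and 3.32 in WT and 4.14, 2.88 and 3.24 in Het mice on the high-fat diet. Under low-fat feeding the same probe stood at 0.79, 1.01 and 0.94 in WT and at 1.22, 1.54 and 0.99 in Het mice. The lowest high-fat array thus lay well above the highest low-fat array, and Het high-fat replicate 1 was the highest of all. The brighter probe was higher on the high-fat diet by 2.29 ± 0.27 (SE, n = 3; 4.88-fold) in WT mice, with an adjusted p of 0.0066 by limma. In Het mice the difference was 2.17 ± 0.27 (SE; 4.49-fold), with an adjusted p of 0.00301 by limma. The dimmer probe, in another stretch of the transcript, gave 2.43 ± 0.26 in WT and 2.37 ± 0.26 in Het mice (adjusted p = 0.0066 and 0.00223 by limma). Its 95% intervals ran from 1.86 to 2.997 and from 1.80 to 2.94. Without any single array both Anxa2 probes kept their call in each genotype, with differences of the brighter probe between 1.81 and 2.44 in Het.

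Anxa5, which binds phosphatidylserine exposed on dying cells, rose in both genotypes. It stood at 5.18, 4.96 and 4.99 in WT and at 5.77, 4.77 and 5.42 in Het mice on the high-fat diet. Under low-fat feeding it stood at 3.71, 3.44 and 3.99 in WT and at 4.05, 4.20 and 3.60 in Het mice. No low-fat array reached the lowest high-fat array, and the Het high-fat mice spread more widely than the WT mice on that diet. The difference was 1.33 ± 0.25 (SE, n = 3; 2.51-fold; adjusted p = 0.0203 by limma) in WT. In Het mice it was 1.37 ± 0.25 (2.59-fold; adjusted p = 0.00843 by limma), and the interaction was 0.04 ± 0.35. The WT call was lost without any 1 of WT high-fat replicates 1, 2 and 3 or WT low-fat replicate 1, with adjusted p of 0.0509 to 0.0634 by limma and a difference between 1.26 and 1.37. It was also lost with no filter on dim probes (adjusted p = 0.0576 by limma).

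Anxa1, which limits neutrophil entry through formyl peptide receptors, and Anxa3 did not pass the test. Anxa1 was at -0.03, 0.51 and -0.15 in WT and at -0.29, -0.33 and 1.17 in Het mice on the high-fat diet. Its low-fat levels were -0.42, -0.97 and -0.03 in WT and 0.22, 0.34 and -0.71 in Het mice. The groups overlapped, and Het high-fat replicate 3 stood highest. Over both genotypes the Anxa1 difference was 0.41 ± 0.30 (95% interval -0.25 to 1.07; adjusted p = 0.32 by limma). For Anxa3 the brighter probe ranged only from 0.05 to 0.83 over the 12 arrays. Its difference was 0.12 ± 0.14, and the 95% interval from -0.18 to 0.43 left no room for a change of the size seen for Anxa5.

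Among the S100 genes, S100a4, which binds nonmuscle myosin and marks motile mesenchymal and myeloid cells, was called in Het mice and over both genotypes. On the high-fat diet its levels were 1.04, 1.20 and 0.60 in WT and 1.54, 0.98 and 1.89 in Het mice. Under low-fat feeding they were 0.35, -0.60 and -0.19 in WT and -0.42, 0.31 and -0.40 in Het mice. High-fat and low-fat arrays did not overlap within either genotype or between them. The difference was 1.64 ± 0.31 (SE, n = 3; 3.12-fold; adjusted p = 0.00911 by limma) in Het mice. In WT mice it was 1.09 ± 0.31 (2.13-fold; adjusted p = 0.0613 by limma), which passed the threshold with scaling to the median (adjusted p = 0.0391), with normexp (0.0443) and with slide as a random block (0.0105). The interaction, the difference between these values, was 0.55 ± 0.43 with an adjusted p of 0.991 by limma, so the response to diet was not shown to differ between genotypes.

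S100a6, or calcyclin, lies beside S100a4 and stood at 0.26, 0.75 and 0.04 in WT and at 0.94, 0.17 and 1.69 in Het mice on the high-fat diet. Its low-fat levels were -0.09, -0.82 and -0.12 in WT and 0.16, 0.34 and -0.54 in Het mice. The WT groups did not overlap and the Het groups did. Over both genotypes its difference of 0.82 ± 0.27 (SE, n = 6; adjusted p = 0.0404 by limma) was called. That call was lost in 9 of the 12 fits that left out 1 array, all but those without WT high-fat replicate 3, Het high-fat replicate 2 and Het low-fat replicate 2, with adjusted p up to 0.086. It was also lost with no filter on dim probes (adjusted p = 0.0812 by limma). In Het mice alone the difference was 0.94 ± 0.38 (adjusted p = 0.11 by limma), which passed the threshold without Het high-fat replicate 2 (adjusted p = 0.04) and with slide as a random block (0.0424).

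S100a11, with the reservation on its probe given above, stood at 0.58, 0.92 and 0.44 in WT and at 1.45, 0.08 and 1.61 in Het mice on the high-fat diet. Its low-fat levels were -0.60, -1.89 and -0.42 in WT and -0.10, 0.14 and -1.37 in Het mice. The WT groups were apart, and Het high-fat replicate 2 lay below Het low-fat replicate 2. Its difference was 1.62 ± 0.51 in WT and 1.49 ± 0.51 in Het mice, neither of them called (adjusted p = 0.0837 and 0.0713 by limma). Slide as a random block, with the limit on that fit given above, brought both past the threshold (adjusted p = 0.0217 in WT and 0.0194 in Het). The Het value also passed it with normexp (0.0476), without Het high-fat replicate 2 (0.0325) and without WT low-fat replicate 2 (0.048). Over both genotypes it was 1.55 ± 0.36 (SE, n = 6; 2.94-fold; adjusted p = 0.0101 by limma), and this call held without any single array. The probe of LOC670046 gave 1.45 ± 0.36 (adjusted p = 0.0139 by limma) over both genotypes, which does not tell the 2 transcripts apart.

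S100a10, the partner of Anxa2, differed little between diets. Its levels were 5.35, 5.17 and 5.48 in WT and 5.12, 5.10 and 5.80 in Het mice on the high-fat diet. Under low-fat feeding they were 5.22, 4.47 and 5.24 in WT and 5.24, 5.32 and 4.36 in Het mice. The 2 low values, WT low-fat replicate 2 and Het low-fat replicate 3, were also the lowest of the 12 for S100a6, S100a8, S100a11 and Anxa1. Those 2 arrays had the lowest 75th percentiles of signal among the low-fat arrays, at 1186 and 1370 intensity units against 1821 to 2006 on the others, and the part of array brightness in these values was not tested. Over both genotypes the S100a10 difference was 0.36 ± 0.21 (95% interval -0.10 to 0.83; adjusted p = 0.213 by limma). Within each array the log2 ratio of Anxa2 to S100a10 was -2.56 to -0.98 on the high-fat and -4.43 to -3.37 on the low-fat diet, without overlap, which shows unequal change of the 2 genes and carries no test, since it was chosen after the levels were seen.

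**Figure D2:**
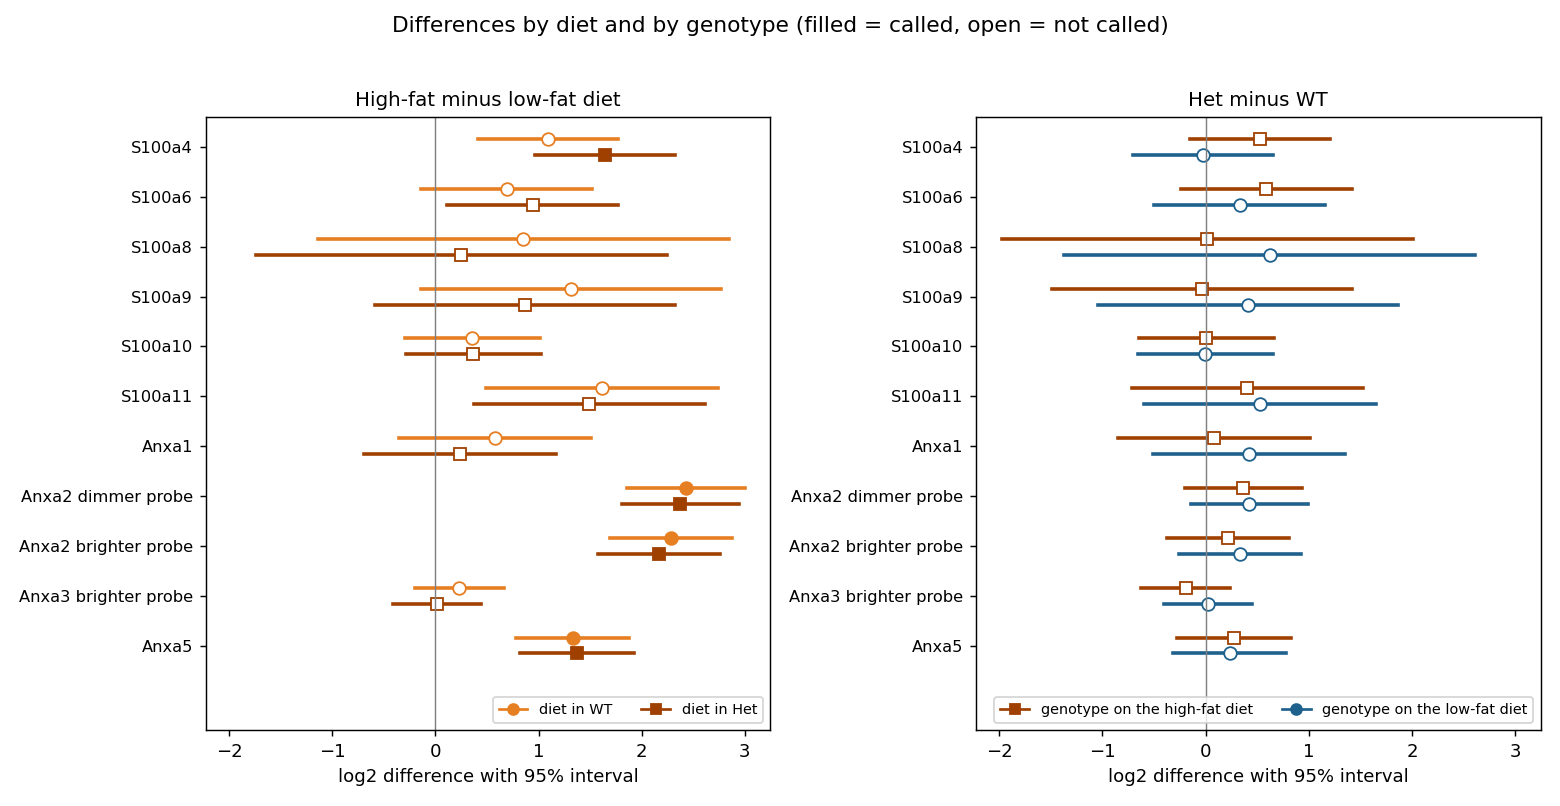
Log2 differences with 95% intervals for the 11 measured probes, on the left high-fat minus low-fat diet in WT and in Het mice, on the right Het minus WT on each diet; filled symbols are called. Both Anxa2 probes and Anxa5 are called in both genotypes and S100a4 in Het alone, while every interval on the right includes 0.

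S100a8 and S100a9 were not called for diet and varied widely between mice of a group, with SDs of 0.87 to 1.77 for S100a8 and of 0.19 to 1.52 for S100a9. S100a8 stood at -3.15, -0.39 and -3.69 in WT and at -3.29, -2.83 and -1.06 in Het mice on the high-fat diet. Under low-fat feeding it stood at -3.02, -4.23 and -2.54 in WT and at -2.56, -1.50 and -3.87 in Het mice. The highest values came from WT high-fat replicate 2, Het high-fat replicate 3 and Het low-fat replicate 2, each in another group, and all groups overlapped. Each of these arrays also had the highest 75th percentile of signal in its group, at 1688, 1634 and 2006 intensity units. The part of array brightness in the S100a8 and S100a9 values was not tested. The S100a8 difference over both genotypes was 0.55 ± 0.64 (SE, n = 6; adjusted p = 0.542 by limma), with a 95% interval from -0.86 to 1.96. In WT mice it was 0.85 ± 0.91, and -0.16 without WT high-fat replicate 2.

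S100a9 had its highest levels on the same 3 arrays. It stood at 0.64, 2.97 and 0.10 in WT and at 0.61, 0.97 and 2.03 in Het mice on the high-fat diet. Under low-fat feeding it stood at -0.12, -0.24 and 0.13 in WT and at 0.04, 1.23 and -0.27 in Het mice. Without Het low-fat replicate 2 the Het groups would not overlap, and in WT mice the lowest high-fat array lay just below the highest low-fat array. Its difference over both genotypes was 1.09 ± 0.47 (adjusted p = 0.0995 by limma), which was called with slide as a random block (1.04, adjusted p = 0.0241) and without WT high-fat replicate 3 (1.38, adjusted p = 0.0477). In WT it was 1.32 ± 0.66, which fell to 0.45 without WT high-fat replicate 2.

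Neutrophil markers moved with this pair on some of the same arrays. Of 15 neutrophil markers 10 were measured, and their summed linear level was 0.65 to 2.16 in WT and 0.96 to 1.50 in Het mice on the high-fat diet, and 0.68 to 0.92 and 0.68 to 1.09 on the low-fat diet. The 2.16 belonged to WT high-fat replicate 2, the 1.50 to Het high-fat replicate 3 and the 1.09 to Het low-fat replicate 2, each the highest of its group. A linear sum weighs bright markers most, and Chil3 was the largest part of it on Het high-fat replicate 3. Camp, the granule peptide cathelicidin, stood at -1.75 on WT high-fat replicate 2 and at -4.75 or lower on every other array. Mpo, the granule enzyme myeloperoxidase, stood at -1.16 there and at -3.23 or lower elsewhere. On Het high-fat replicate 3, where S100a8 had its next highest level, the markers went different ways. Chil3 (-0.21), Retnlg (-3.61) and Mmp8 (-4.57) were the highest of the Het high-fat mice there, Chil3 of all 12 arrays, while Camp (-5.12) and Ltf (-5.12) were the lowest of that group and Mpo (-3.30) lay between the others. Levels as low as those of Camp, Ltf and Mmp8 lie near background, so their order among these mice carries little weight. The defining markers Elane and Stfa2 were not well above background on any array, and Ngp, Camp and Mmp8 were so on 4 arrays each. Over both genotypes 5 of the 10 were called higher on the high-fat diet and 1 lower, with a median of 0.99. Among all probes 12.3% were called higher and 17.1% lower. Beside Chil3 the 5 were Ltf (1.91 ± 0.53), Mmp8 (1.49 ± 0.41), Mpo (1.61 ± 0.49) and Camp (2.40 ± 0.81), with adjusted p of 0.021 to 0.0462 by limma, named after their values were seen. With 4 arrays well above background, Camp and Mmp8 passed the filter through 1 group only, and Ltf was so on 6 arrays. The calls of Camp and Mmp8, and with them the count of 5, therefore depend in part on that filter. Without WT high-fat replicate 2 all 5 were still called, with Mpo at 1.06 and Camp at 1.54. The count fell to 2 without Het high-fat replicate 1 or Het low-fat replicate 1. It fell to 3 without Het high-fat replicate 3, WT low-fat replicate 1 or 3 or Het low-fat replicate 3. Within single genotypes, Chil3, a secreted lectin of neutrophils and macrophages, was the marker called higher in each (2.52 ± 0.53 in WT, adjusted p = 0.0272, and 2.49 ± 0.53 in Het, adjusted p = 0.0141, by limma), and Csf3r, the G-CSF receptor, was lower in Het (-0.80 ± 0.21, adjusted p = 0.0304). The part of neutrophil content in the S100a8 and S100a9 values was not tested.

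**Figure D3:**
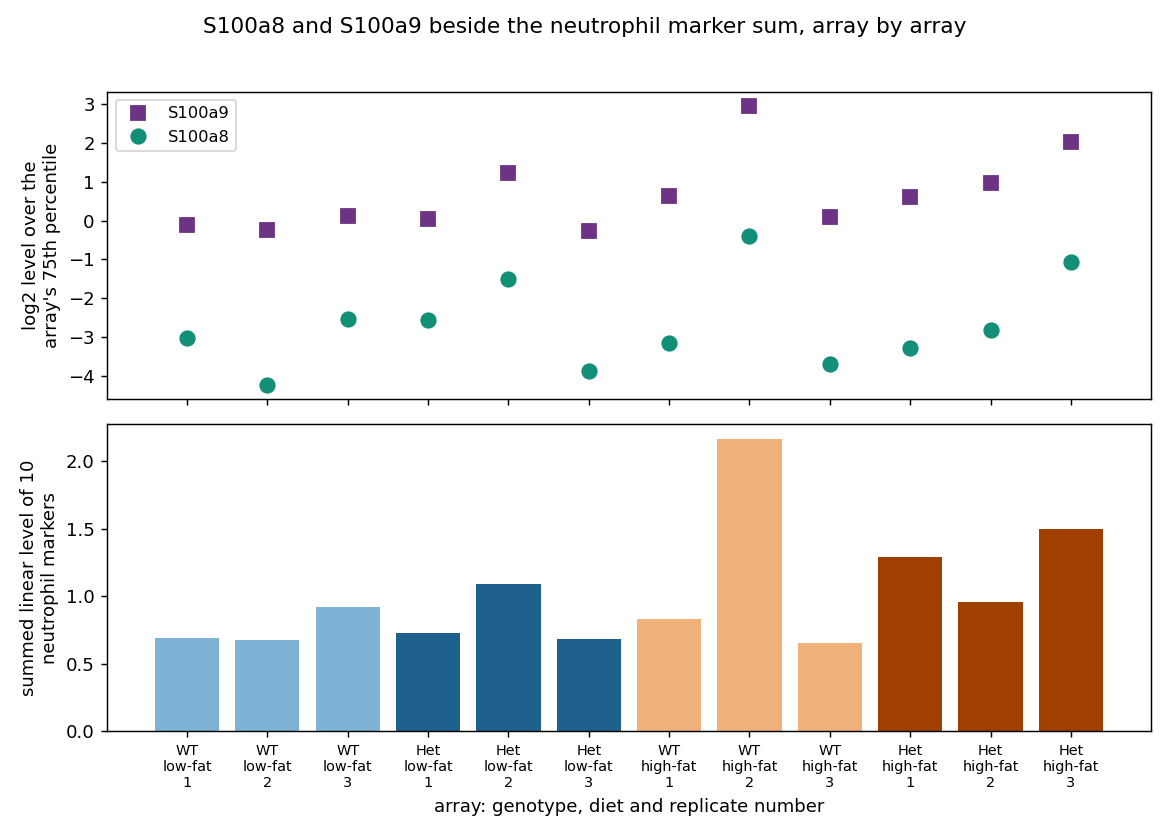
Upper panel, log2 levels of S100a8 and S100a9 on each of the 12 arrays; lower panel, the sum of the linear levels of 10 neutrophil markers, each over the 75th percentile of its array. S100a8 and S100a9 peak on WT high-fat replicate 2, Het high-fat replicate 3 and Het low-fat replicate 2, and the sum is highest, at 2.16, on the first of these.

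Partners were compared across arrays within each diet, in 6 relations with exact two-sided permutation tests and adjustment over the 6. S100a8 and S100a9, subunits of 1 complex, rose and fell together, with a Pearson r of 0.99 (exact p = 0.00139, adjusted 0.00417; Spearman rho 1, adjusted p = 0.00833) over 6 high-fat arrays. Over 6 low-fat arrays r was 0.87 (exact p = 0.00417, adjusted 0.00833; rho 0.94, adjusted p = 0.0333). Leaving out the 2 arrays farthest from the median S100a8 level gave r of 0.99 and 0.96. Over the high-fat arrays these were the 2 highest, WT high-fat replicate 2 and Het high-fat replicate 3. Over the low-fat arrays they were the lowest, WT low-fat replicate 2, and the highest, Het low-fat replicate 2. The relation of S100a8 and S100a9 kept a high r without them, but with so few arrays left r is given as a description and without a test. S100a10 and Anxa2 showed no such relation, with r of -0.17 over the high-fat arrays (exact p = 0.781; rho 0.31, p = 0.564) and 0.31 over the low-fat arrays (exact p = 0.581, adjusted 0.697; rho 0.37, p = 0.497). Without the 2 farthest arrays these became -0.31 and 0.90, so the low-fat value rests on 2 arrays. S100a11 and Anxa1 had an r of 0.97 over the low-fat arrays (exact p = 0.00139, adjusted 0.00417; rho 1, adjusted p = 0.00833), and 0.95 without the 2 farthest. Over the high-fat arrays their r was 0.62 (exact p = 0.182, adjusted 0.273; rho 0.66, p = 0.175), and 0.95 without the 2 farthest. Probes of 1 array share its brightness and scaling, which these values include. Over the low-fat arrays S100a11 and Anxa1 both rose in the exact order of the arrays' 75th percentiles of signal. These ran from 1186 intensity units on WT low-fat replicate 2 to 2006 on Het low-fat replicate 2. The part of array brightness in that relation was not tested, and the reservation on the S100a11 probe applies to it as well.

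**Figure D4:**
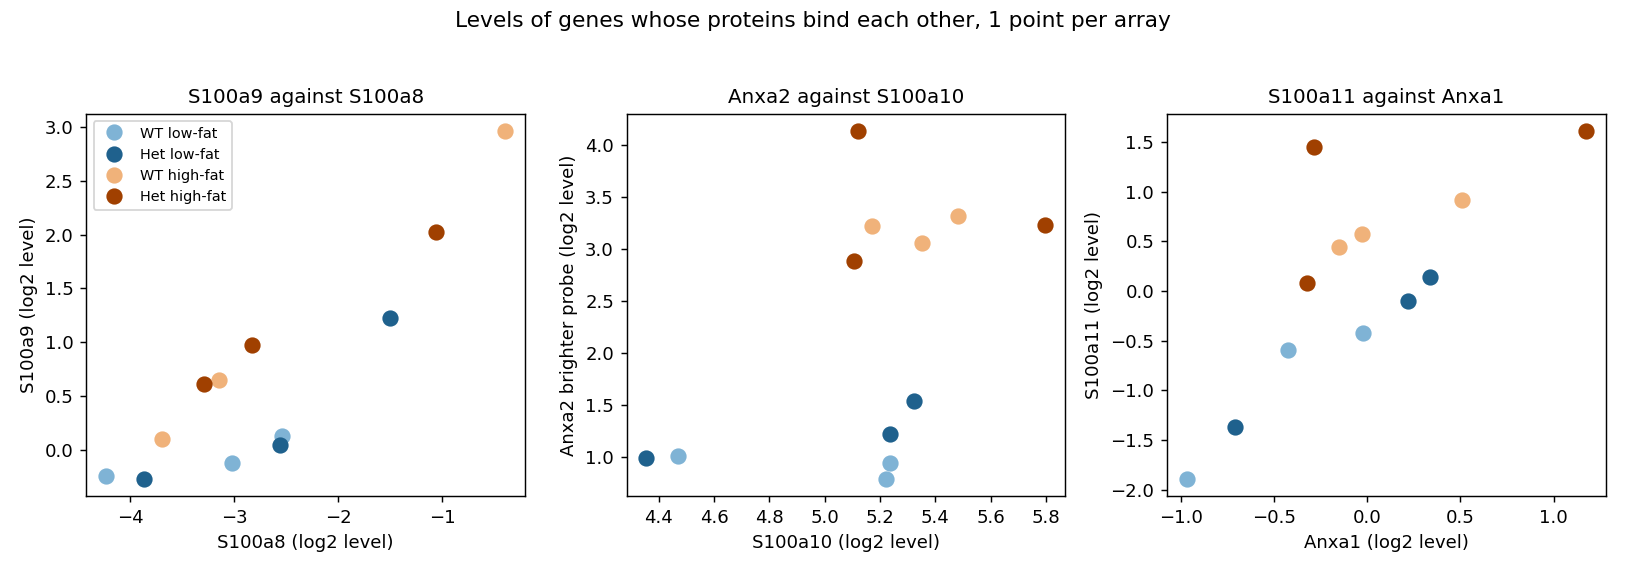
Log2 levels of 3 pairs of genes whose proteins bind each other, 1 point per array, coloured by group. S100a9 follows S100a8 within both diets, Anxa2 parts the diets at like levels of S100a10, and S100a11 lies higher on the high-fat arrays at a given level of Anxa1.

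By likeness of pattern, measured as Pearson r over the 12 arrays after each diet's mean was subtracted and given as a description, the nearest genes to Anxa2 were Rbbp8 (r = 0.92), Fbln5 (0.92) and Tpm1 (0.91). Tpm1 encodes a tropomyosin of actin filaments and Fbln5 an extracellular matrix protein, and they were called higher on the high-fat diet by 1.21 ± 0.10 and 0.81 ± 0.14 over both genotypes (adjusted p = 0.000284 and 0.00262 by limma). Nearest to Anxa5 were Scara3 (0.93), Col1a1 (0.93), the alpha chain of type I collagen, and Srxn1 (0.93), which repairs oxidised peroxiredoxins. Col1a1 and Srxn1 were higher on the high-fat diet by 2.07 ± 0.34 and 1.18 ± 0.10 (adjusted p = 0.00203 and 0.000284 by limma). S100a8 was nearest to Stt3a (0.95), 1700025G04Rik (0.95) and Tuba1a (0.94), with the members themselves left out of the ranking, in which S100a9 (0.95) would otherwise stand above Tuba1a. S100a10 was nearest to Habp4 (0.98), Zfp90 (0.96) and Tmem167 (0.95). The diet differences of these neighbours of S100a8 and S100a10 lay between -0.20 and 0.07 with none called, as for S100a8 and S100a10 themselves. All these r are the highest of many genes ranked over few arrays, and they include the brightness and scaling that probes of 1 array share. The part of array brightness in them was not tested.

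Genotype gave no call for any member. Within the high-fat mice, within the low-fat mice and over both diets 0 of 11 probes were called by limma, 0 had an unadjusted p under 0.05, and 0% of all 25296 probes were called, with 2288, 582 and 1300 of them at an unadjusted p under 0.05. The interaction of genotype and diet likewise called 0 members and 0% of all probes, with 1343 of all probes and 0 members at an unadjusted p under 0.05. Estimates were higher in Het for 9, 9 and 10 of 11 probes, where 55.1%, 49.5% and 52.6% of all probes were, and probes of 1 array are not independent. For Anxa2 the dimmer probe was 0.39 ± 0.18 higher in Het over both diets (95% interval -0.01 to 0.79) and the brighter 0.28 ± 0.19 (-0.14 to 0.70). Without Het high-fat replicate 1 these differences were 0.23 and 0.098. S100a4 differed by 0.52 ± 0.31 on the high-fat diet (-0.15 to 1.20) and by -0.02 ± 0.31 on the low-fat diet (-0.70 to 0.65). S100a10 differed by 0.0016 ± 0.21 over both diets, with an interval from -0.46 to 0.46. For S100a8 the interval on the high-fat diet ran from -1.98 to 2.01, the widest of the 11, so that a large change in either direction was not detectable with 3 mice a group. Each slide held few arrays that bear on genotype. On the slide that held Het high-fat replicates 1 to 3 and WT high-fat replicate 3, Het minus WT was 0.10 for the brighter and 0.28 for the dimmer Anxa2 probe, 0.87 for S100a4 and 1.30 for S100a8. On the slide with WT low-fat replicates 1 to 3 and Het low-fat replicate 1 these were 0.31, 0.45, -0.28 and 0.70, each with a lone array on 1 side and no test. With slide as a block 0 member probes were called for genotype.

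Some other annexins were called higher on the high-fat diet and no other S100 gene was. Of 8 other annexins 7 were measured, and 2 were called higher in each genotype and 0 lower, with a median difference of 0.55 in WT and 0.76 in Het. Over both genotypes 4 of the 7 were called higher, Anxa7, Anxa8, Anxa9 and Anxa13, and 0 lower. Of all probes 2.42% were called higher in WT, 6.79% in Het and 12.3% over both genotypes. Anxa7, which acts in membrane fusion, was higher by 0.55 ± 0.13 in WT and 0.93 ± 0.13 in Het mice (adjusted p = 0.0384 and 0.0042 by limma). Anxa8 was called in WT alone, at 2.24 ± 0.41 (adjusted p = 0.0197), against 0.85 ± 0.41 in Het (adjusted p = 0.18). Its WT low-fat levels were -0.96, -2.87 and -2.57, a wider spread than its high-fat levels of 0.09, 0.34 and -0.10. Anxa9 was called in Het alone, at 0.76 ± 0.20 (adjusted p = 0.0321), against 0.58 ± 0.20 in WT (adjusted p = 0.107). Neither gene had a called interaction, so a difference between genotypes was not shown for them. Anxa4, Anxa6, Anxa11 and Anxa13 were called in neither genotype alone. Of 10 other S100 genes 6 were measured and 0 were called in either genotype, with medians of 0.03 and 0.06. The lowest p in WT was that of S100a3 (-0.69 ± 0.33, adjusted p = 0.212) and the lowest in Het that of S100g (1.29 ± 0.67, adjusted p = 0.21).

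Some receptors and partners of these proteins were called higher on the high-fat diet. Of 18 listed, 16 were measured and 3 were called higher in each genotype and 0 lower, with medians of 0.13 in WT and 0.27 in Het. Over both genotypes 6 of the 16 were called higher and 0 lower, with a median of 0.23. Of all probes 2.42% were called higher in WT, 6.79% in Het and 12.3% over both genotypes. Cd36, a scavenger receptor and fatty acid translocase, rose by 1.54 ± 0.36 in WT and 1.27 ± 0.36 in Het mice (adjusted p = 0.0363 and 0.0392 by limma). Myof, a ferlin of membrane repair, rose by 0.87 ± 0.22 and 1.13 ± 0.22 (adjusted p = 0.0469 and 0.0103). Myh9, the myosin heavy chain bound by S100a4, was called in WT (0.66 ± 0.16, adjusted p = 0.0394) and not in Het (0.45 ± 0.16, adjusted p = 0.0759). Plat, the plasminogen activator bound by the S100a10 complex, was called in Het (1.39 ± 0.35, adjusted p = 0.0243) and not in WT (1.02 ± 0.35, adjusted p = 0.0996), and its substrate Plg was at -0.12 ± 0.21 and -0.33 ± 0.21, not called. No interaction was called for Myh9 or Plat. The receptors Tlr4, Fpr1 and Fpr2 were called in neither genotype, and Ager was not measured.

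Markers of several liver cell types moved with the members that rose. The shares of all probes called higher, beside which the counts below stand, were 2.42% in WT, 6.79% in Het and 12.3% over both genotypes. Of 8 markers of lipid-associated macrophages all were measured, and 5 in WT and 7 in Het mice were called higher, and all 8 over both genotypes. Gpnmb rose by 4.04 ± 0.60 and 3.23 ± 0.60, Mmp12 by 3.76 ± 0.47 and 2.77 ± 0.47, Cd63 by 2.48 ± 0.41 and 2.85 ± 0.41 and Trem2 by 2.23 ± 0.41 and 1.79 ± 0.41 in WT and Het (adjusted p at most 0.0197 by limma). Their summed linear level was 28.3 to 32.2 in WT and 21.3 to 53.5 in Het mice on the high-fat diet and 12.04 to 14.6 over the low-fat mice. Of 10 stellate cell and fibroblast markers 3 and 4 were called higher, and 6 over both genotypes, among them Col1a1 (2.07 ± 0.48 in each genotype), Col3a1 (1.40 ± 0.36 and 1.27 ± 0.36) and Pdgfrb (0.88 ± 0.18 and 0.71 ± 0.18), and Col1a2 in Het. Their sum was 42.0 to 49.5 in WT and 40.6 to 68.6 in Het mice on the high-fat diet, and 35.0 to 42.3 on the low-fat diet. Of 9 measured cholangiocyte markers 5 were called higher over both genotypes, 0 in WT and 2 in Het, Spp1 (2.09 ± 0.46, adjusted p = 0.0163) and Tspan8 (2.18 ± 0.55, adjusted p = 0.0265), both also expressed outside bile ducts, and Muc1 was well above background on 3 arrays. Their sum was 20.9 to 25.3 in WT and 13.8 to 71.1 in Het mice on the high-fat diet against 7.48 to 10.4 on the low-fat diet.

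Macrophage and Kupffer cell markers and endothelial markers were called in both directions, and lymphocyte and hepatocyte markers only lower. Over both genotypes 5 of 15 macrophage and Kupffer cell markers were higher and 1 lower, 1 of 8 endothelial markers higher and 2 lower, and 0 higher and 2 lower both of 7 lymphocyte and of 8 hepatocyte markers. Among all probes 12.3% were called higher and 17.1% lower. Counts of 1 or 2 in lists of 7 or 8 lie near these shares and are no result about a cell type. In single genotypes the shares were 2.42% higher and 3.27% lower in WT, and 6.79% and 8.01% in Het. Of the 15 measured macrophage and Kupffer cell markers, 0 were called in WT mice and 3 in Het mice, Cd14 (1.59 ± 0.37) and Cd68 (0.76 ± 0.20) higher and Timd4 (-2.25 ± 0.62), of resident Kupffer cells, lower, and the sum was 143.5 to 211.1 over the high-fat mice and 114.1 to 208.9 over the low-fat mice. Of 8 endothelial markers Lyve1 was higher (1.24 ± 0.32) and Kdr lower (-0.60 ± 0.15) in WT, and Vwf was higher (0.81 ± 0.25) and Cdh5 (-0.73 ± 0.17) and Kdr (-0.49 ± 0.15) were lower in Het, with sums of 28.2 to 34.5 on the high-fat and 32.5 to 38.0 on the low-fat diet. Of 7 measured lymphocyte markers only Cd3e was called, lower in Het (-1.16 ± 0.30), with sums of 0.75 to 1.19 and 0.84 to 1.96. Of the 8 hepatocyte markers Cps1 was lower in WT (-1.12 ± 0.16) and in Het (-0.94 ± 0.16) and Ttr lower in Het (-0.86 ± 0.23), with sums of 1475 to 2274 and 1363 to 2244. The part of these cell types in the levels of Anxa2, Anxa5, S100a4, S100a6 and S100a11 was not tested.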

How the data were processed

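Members and gene lists were chosen with earlier results of these data known. Per the file headers, the scanner tables hold intensity values of each spot, processed with background subtraction and detrending within the array, and unitless 0 or 1 flags that mark a spot as clear of background, as saturated or as an outlier. The submitters' processing notes name Agilent Feature Extraction 9.5. The deposited table of the whole series repeated these intensity values unchanged (largest relative difference 0), linear and not centred, and was no independent alternative. Probe coordinates are those of mm7, per the file headers.

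Processed intensity was divided by its 75th percentile among the array's non-control spots and taken as log2. Control spots and 1344 outlier-flagged spots were left out, saturated spots kept and spots of a probe averaged, giving 41174 probes. Of these, 25296 were kept, flagged well above background in all 3 mice of 1 or more groups and with 2 or more values in each group. Means of the 4 groups entered the model of limma 3.58.1 (R 4.3.3; 8 residual and 2.99 prior degrees of freedom), 2-sided, for 7 comparisons, at probe level. The scripts were tested on simulated data. Of the 25296 probes 17213 were named through their accession, 3481 through a current and 1653 through an older symbol, and 2949 kept the array's name. For lists the brightest probe of a gene was used. Named are every member probe, up to 4 genes of lowest p per list and direction among those called for diet in either genotype (up to 2 where none was), and the 3 genes most like S100a8, S100a10, Anxa2 and Anxa5. The number of arrays limits the precision.

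Alternatives were quantile normalization, scaling to the median, normexp with an offset of 50, no filter on dim probes, 1 probe per gene name, a fit of only the groups compared, replicate number or slide as a block, and leaving out each array.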

Additional observations from a re-analysis of the deposited data

How the results depend on the processing

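The 6 high-fat and 6 low-fat arrays were scanned on different days and slides, 3 mice a group limit what genotype comparisons can show, and probes under background have no level. Members called for diet in WT numbered 5 instead of 3 with slide as a random block (correlation within slides -0.18, the added calls S100a4 and S100a11), and between 2 and 3 without single arrays; in Het they numbered 4 to 6 and over both genotypes 5 to 7. No alternative called a member for genotype or the interaction. Counts of all probes called for diet in WT and Het were 206 and 1567 with no filter, where dim probes add to those tested. They were 796 and 2192 with only the groups compared, and 5455 and 7808 with slide as a random block (12809 over both genotypes). The random block tends to lower the SE of a diet difference, as stated above, and the size of that effect on its counts was not tested. For the fit of only the groups compared the cause was not tested. Without single arrays the counts for diet ran from 261 to 1645 in WT and from 1136 to 4139 in Het. For genotype they ran from 0 to 61 on the high-fat diet (61 without WT high-fat replicate 3), 0 to 1 on the low-fat diet and 0 to 8 over both diets, and for the interaction from 0 to 5. Slide as a fixed block called 1 probe of all in each genotype comparison, and quantile normalization 1 on the high-fat diet. Replicate numbers did not pair the arrays (correlation of deviations of same-numbered arrays -0.46 to 0.46, median -0.03, over 18 pairs of arrays), and the replicate block gave 701 probes for diet in WT and 1 for genotype over both diets and lost the S100a6 call over both genotypes (adjusted p = 0.0661 by limma). With 4 arrays left, correlations are given without a test, at r of 0.952 for S100a11 with Anxa1 (low-fat) and 0.989 and 0.956 for S100a8 with S100a9 (high-fat and low-fat).

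Reversals concerned members that were not called. With slide as a random block Anxa3 became -0.015 for diet in Het, with slide as a fixed block 0.0060 for genotype over both diets, and with scaling to the median S100a10 became -0.053 for genotype over both diets. Without single arrays the diet difference ran from -0.16 to 1.49 for S100a8 in WT, and in Het from -0.42 to 0.82 for S100a8, -0.25 to 0.50 for Anxa1 and -0.13 to 0.16 for Anxa3. For genotype over both diets it ran from -0.02 to 0.82 for S100a8, -0.095 to 0.62 for S100a9 and -0.13 to 0.16 for S100a10.

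Counts of called genes in the lists moved too. In WT the counts called higher of other annexins, receptors and partners, and stellate cell markers all fell to 0 without any 1 of WT high-fat replicates 1, 2 and 3 or WT low-fat replicate 3. In Het those of stellate cell markers fell to 0 without Het high-fat replicate 1. Over both genotypes, without single arrays, 3 to 4 other annexins, 5 to 6 receptors and partners, 6 stellate cell and 8 lipid-associated macrophage markers were called higher, and 2 to 6 macrophage and Kupffer cell and 3 to 6 cholangiocyte markers, both at their lowest without WT low-fat replicate 3 or Het low-fat replicate 1.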
